A study of Mus musculus with 34 samples.

Results

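Of 6 Rfx3 knockout cultures of ependymal cells, 3 kept the master regulators of multiciliation near the wild-type level, and these are compared here with the wild types of the same line. The members are 9 of the 34 libraries of the series: knockouts 1, 2 and 3, and wild types 1 to 6. The knockouts were chosen by their measured level of Mcidas, with a minimum of 40 CPM (counts scaled to the library's total and by TMM between libraries). The 3 taken held 93.7, 90.4 and 65.9 CPM, against 69.2 to 112 in the wild types, so knockout 3 lay below every wild type. The other 3 knockouts, not taken, held 20.01, 22.5 and 13.3 CPM. The knockout values nearest the threshold were 65.9 above it and 22.5 below it, so none lay close to it. Because a measured level chose the knockouts, the comparison of these 3 with the wild types is a description and carries no p-value. Tests come from a pair of fits that leave no knockout out. The first sets all 6 labelled knockouts against the 6 wild types, and the second adds the Mcidas level as a covariate. With no Rfx3 library between 22.5 and 65.9 CPM, the second rests mostly on the same 3 knockouts against the wild types. Its p-values are therefore not independent of the choice of knockouts.

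Per the labels, the cells came from lateral ventricular walls of mouse embryos at E18.5, shortly before birth. They were grown to confluency and kept for 4 days without serum to differentiate into ependymal cells. The knockouts were Rfx3-/- and the wild types were their siblings, on a C57BL/6 background, while the titles also carry the term OF1, which the labels do not explain. Nothing in the labels ties replicates to separate embryos or cultures, so every p-value below measures the spread between these samples only.

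Multiciliated ependymal cells line the brain ventricles, and their beating cilia move cerebrospinal fluid. The switch to this fate starts with Gmnc and Mcidas, nuclear proteins that act with E2F factors to turn on Myb, Ccno, Foxj1 and the machinery that makes many centrioles. RFX factors bind a DNA element called the X-box, a pair of inverted arms, and act beside Foxj1 on genes of the ciliary shaft (the axoneme) and of intraflagellar transport (IFT), the traffic that builds cilia. In the cultures with retained Mcidas, the Rfx3 genotype can be read beside upstream regulators that were measured close to the wild-type level.

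The 9 libraries held between 23099300 counts (knockout 2) and 53410800 (wild type 4). Knockout 3 stood apart from the other knockouts and the wild types in a way that followed gene length. Relative to the wild types, its genes in the shortest of 5 equal length classes had a median log2 shift of 0.52 and those in the longest -0.57, against 0.06 and -0.07 in knockout 1 and 0.0039 and -0.0091 in knockout 2. Its mean absolute log2 shift over genes was 0.549, against 0.217 and 0.233 in knockouts 1 and 2. Knockouts 4 to 6 were nearer to it on this measure, at 0.454, 0.448 and 0.490. Wild type 6 also stood apart, with a summed microglia marker level of 499 CPM against at most 151 in the other wild types. Y-linked genes were expressed in 1 of the 3 knockouts (knockout 2), in 2 of the 6 wild types and in all 3 of the other knockouts, so both groups compared hold libraries with and without them. Values without knockout 3 or wild type 6 are given beside results that rest on them. In bulk RNA, fewer cells of a type and less RNA per cell cannot be told apart.

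Rfx3 itself (ENSMUSG00000040929, chromosome 19, 27761721 to 28011166, GRCm38) was low in the 3 knockouts, at 45.98, 51.7 and 24.9 CPM, against 157 to 209 (median 172) in the wild types. The knockouts lay far below every wild type, at 23.2% of the wild-type mean, and the other 3 knockouts were similar at 40.1, 41.3 and 35.2 CPM. The log2 difference was -2.11 (SE 0.21), and over all 6 knockouts Rfx3 fell with an adjusted p of 4.16e-05 (edgeR). The labels do not name the deleted part of the gene, so the reads that remain cannot be assigned to a product.

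Most regulators of multiciliation overlapped the wild types in these knockouts, as did most genes tested (11212 of 14340). For the regulators this was partly fixed by choosing the knockouts on Mcidas, a member of the list. Of the 15 regulators in the list, 13 overlapped the wild-type range, 1 (Fank1) was below every wild type and 1 (Tfdp1) above, where 12.7% of all genes tested were below and 9.11% above. With 1 library left out, 2 were below without knockout 1, wild type 4 or wild type 6, and 2 were above without knockout 1 or knockout 3. Without Mcidas, the median log2 difference over the other 14 was -0.11 (-0.0035 without knockout 3), against -0.01 over all 14340 genes tested. The median of these 14 by library, against the wild-type mean, came to -0.0037, -0.01 and -0.24 for knockouts 1 to 3, and -1.29, -1.21 and -1.48 for the 3 knockouts that were not taken. Foxj1, the transcription factor for motile cilia, was at 1479.95, 1435 and 1378 CPM against 1437 to 1729 (median 1561). Knockouts 2 and 3 lay just below the lowest wild type and knockout 1 inside the range, and the group reached 91.5% of the wild-type mean. Ccno, a cyclin-like protein needed for centriole production, was at 168, 152 and 175 CPM against 115 to 182 (median 156), and all 3 lay inside that range. Gmnc, which acts upstream of Mcidas, was at 150.3, 157 and 103 CPM against 106 to 139 (median 124), so that knockouts 1 and 2 were above every wild type and knockout 3 below. Myb, Trp73, Foxn4 and Cdc20b, which are also switched on early in these cells, had log2 differences of -0.09, -0.24, -0.30 and -0.28. In each of them knockout 3 was the lowest of the 9 libraries, and without it the differences were 0.03, -0.09, -0.09 and -0.02.

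**Figure D1:**
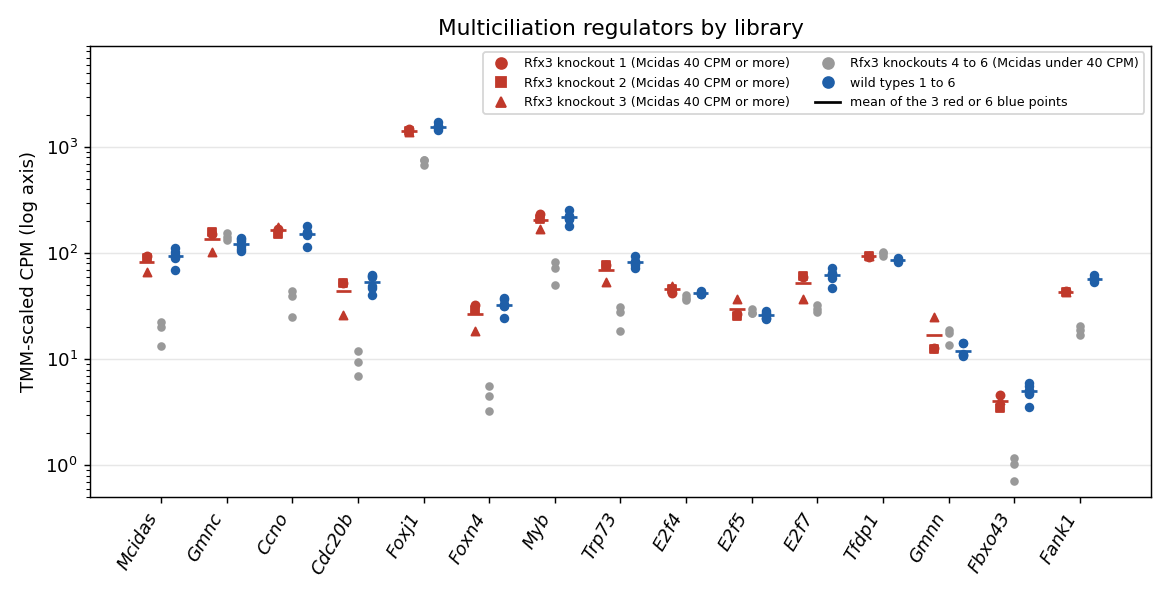
TMM-scaled CPM (log axis) of the 15 multiciliation regulators in each Rfx3 library: red markers, a shape for each, are knockouts 1 to 3, grey points the other 3 knockouts, blue points the 6 wild types, and short lines the means of the red and of the blue points. Mcidas is 65.9 to 93.7 CPM in knockouts 1 to 3 and 69.2 to 112 in the wild types, while the other 3 knockouts lie between 13.3 and 22.5.

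Fank1, an ankyrin-repeat gene of multiciliated cells, was the regulator with full separation downward: 44.4, 43.02 and 42.97 CPM against 53.5 to 61.7 (median 57.5). All 3 knockouts were below the lowest wild type, by a log2 difference of -0.40 (SE 0.06). It fell over all 6 knockouts (adjusted p = 0.0223) and at equal Mcidas level (adjusted p = 0.0409), but the second call ended without any single library other than knockout 3 and wild type 4 (0.0542 to 0.0903). Tfdp1, the partner of E2F factors, was slightly higher, at 92.6, 93.8 and 94.97 CPM against 82.3 to 90.997, median 86.4 (log2 difference 0.12, SE 0.05). Its call over all 6 knockouts (adjusted p = 0.0252) ended without knockout 4 or 6 or without wild type 1, 2, 3, 5 or 6 (0.0516 to 0.0618). Over all 6 knockouts Foxj1, Trp73 and E2f7, which were lower, and Gmnn, which was higher, did not pass (adjusted p = 0.0706, 0.0805, 0.0555 and 0.0624). Yet each passed with DESeq2 (0.0240 to 0.0377), without knockout 1 (0.0196 to 0.0364) and without knockout 2 (0.0157 to 0.0389). In all, 1 regulator fell over all 6 knockouts, where 12.9% of all genes did. Without knockout 1 or without knockout 2, 5 fell, and Gmnn, which rose, is not among them. With 1 library left out, 1289 to 2831 of all genes tested fell, depending on the library.

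Across all genes tested, 314 (2.19%) were at least 2-fold lower with all 3 knockouts below every wild type, and 28 (0.195%) were at least 2-fold higher with all 3 above. Separation alone, at any fold, took in 1821 genes downward (12.7%) and 1307 upward (9.11%). Of the 314 lower genes, 289 fell over all 6 knockouts, where 12.9% of all genes did, and 243 fell at equal Mcidas level, where 5.14% did. Of the 28 higher genes, 26 rose over all 6 knockouts (10.6% of all genes) and 21 at equal Mcidas level (2.11%). These counts share libraries with the comparison that picked the genes, so they are not independent of it. Without knockout 3, 227 of the 314 and 13 of the 28 still met the rule, among 264 and 26 genes in all. Without wild type 6, 267 and 25 still met it, among 273 and 67. Without knockout 1, 475 genes were at least 2-fold lower.

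The 15 largest decreases included Rfx3 and 4 genes of the axonemal lists, Spag17, Efcab1, Cfap73 and Dnah12. They are the largest among 152 genes that were separated at least 2-fold, fell over all 6 knockouts, and had a mean of at least 5 CPM in the wild types. All 15 remained at least 2-fold lower and separated without knockout 3, without wild type 6 and without both. Fam183b, a gene of ciliated tissues (ENSMUSG00000049154, chromosome 11, 58792797 to 58801960), was at 16.1, 0.989 and 1.36 CPM, against 17.01 to 72.2 (median 64.6) in the wild types. Knockout 1 stood just under the lowest wild types, numbers 4 and 5, and the other two knockouts were more than 10-fold below any wild type. The log2 difference was -2.98 (SE 0.89), and the SE is the widest among the 15. Fam183b fell over all 6 knockouts (adjusted p = 0.0155). Its call at equal Mcidas level (adjusted p = 0.0404) ended without knockout 2, 3, 4, 5 or 6 or without wild type 1, 2, 3 or 6 (0.0521 to 0.109).

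Spag17, a large protein of the central pair that sets ciliary beating (ENSMUSG00000027867, chromosome 3, 99885406 to 100143322), was at 5.34, 5.33 and 1.202 CPM against 22.4 to 41.7 (median 25.5). The highest knockout was more than 4-fold below the lowest wild type, and the log2 difference was -2.83 (SE 0.42), or -2.41 without knockout 3. Efcab1, also called calaxin, a calcium-binding protein that holds outer dynein arms to the doublets (ENSMUSG00000068617, chromosome 16, 14906606 to 14981371), was at 10.2, 7.01 and 5.23 CPM against 40.5 to 76.1 (median 46.5). Its log2 difference was -2.75 (SE 0.27), with an adjusted p of 0.000661 over all 6 knockouts and 0.000716 at equal Mcidas level. Cfap73, part of the tether of an inner dynein arm (ENSMUSG00000094282, chromosome 5, 120628335 to 120634235), was at 2.15, 1.76 and 1.05 CPM against 8.82 to 13.7 (median 10.5). Even its highest knockout was about 4-fold below the lowest wild type (log2 difference -2.72, SE 0.24; adjusted p = 0.000505 and 0.000392 in the fits without and with the Mcidas covariate). Dnah12, a heavy chain of the inner dynein arms (ENSMUSG00000021879, chromosome 14, 26693274 to 26891703), was at 33.4, 31.03 and 9.19 CPM against 78.8 to 136 (median 91.5). Its transcript model of 12009 bases is long and knockout 3 was the lowest of the 9 libraries. The log2 difference of -2.004 (SE 0.37) became -1.61 without that library.

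Several of the other genes among the 15 encode membrane proteins. Tmem212, a transmembrane protein that marks ependymal cells (ENSMUSG00000043164, chromosome 3, 27866066 to 27896368), was nearly the same in all 3 knockouts at 1.596, 1.46 and 1.51 CPM, against 7.09 to 17.5 (median 9.28), a log2 difference of -2.74 (SE 0.30). Cdhr3, a cadherin-related protein of ciliated epithelia (ENSMUSG00000035860, chromosome 12, 33033796 to 33092875), was at 2.49, 2.62 and 2.06 CPM against 12.03 to 22.2, median 13.1 (log2 difference -2.65, SE 0.24). Its relative Cdhr4 was at 3.64, 3.09 and 2.25 CPM against 7.798 to 25.5, median 11.6 (log2 difference -2.12, SE 0.39). In all 3 of these genes wild type 6 was the highest library and the knockouts sat within a narrow band. Avpr1a, the V1a vasopressin receptor (ENSMUSG00000020123, chromosome 10, 122448499 to 122453452), was at 1.07, 2.15 and 2.06 CPM against 5.78 to 15.9, median 11.8 (log2 difference -2.71, SE 0.34), and here wild type 6 was the lowest wild type. The other 3 knockouts held 1.59, 1.598 and 2.12 CPM of Avpr1a, the same range as knockouts 1 to 3, although their Mcidas level was much lower. Htr5b, a serotonin receptor (ENSMUSG00000050534, chromosome 1, 121509842 to 121528465), was at 3.22, 2.58 and 2.33 CPM against 8.71 to 13.6, median 10.01 (log2 difference -1.96, SE 0.19), while the other 3 knockouts held only 0.511, 0.5404 and 0.315. Plxdc1, a plexin-domain membrane protein (ENSMUSG00000017417, chromosome 11, 97923238 to 97986444), had the tightest values: 5.08, 4.64 and 5.23 CPM against 17.9 to 22.2, median 18.6 (log2 difference -1.97, SE 0.11). It was among the 3 genes with the smallest p-values of a decrease at equal Mcidas level (adjusted p = 8.72e-05).

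Vwa5b1, Rgs4 and Tppp complete the 15 together with Rfx3. Tppp, which promotes tubulin polymerization, was at 4.66, 5.42 and 1.9001 CPM against 12.2 to 22.9, median 16.3 (log2 difference -2.06, SE 0.32). Rgs4, a regulator of G-protein signalling, was at 1.96, 0.946 and 0.776 CPM against 2.71 to 13.9 (median 4.09), and wild type 6 alone set the upper end: the log2 difference of -2.09 (SE 0.60) became -1.52 without it. Vwa5b1 was at 10.05, 4.38 and 1.74 CPM against 14.7 to 39.9, median 27.01 (log2 difference -2.29, SE 0.49). At equal Mcidas level the calls of Vwa5b1 (adjusted p = 0.0249) and Rgs4 (0.0229) ended without knockout 2 (0.0657 and 0.0601), and that of Vwa5b1 also without wild type 6 (0.0632).

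**Figure D2:**
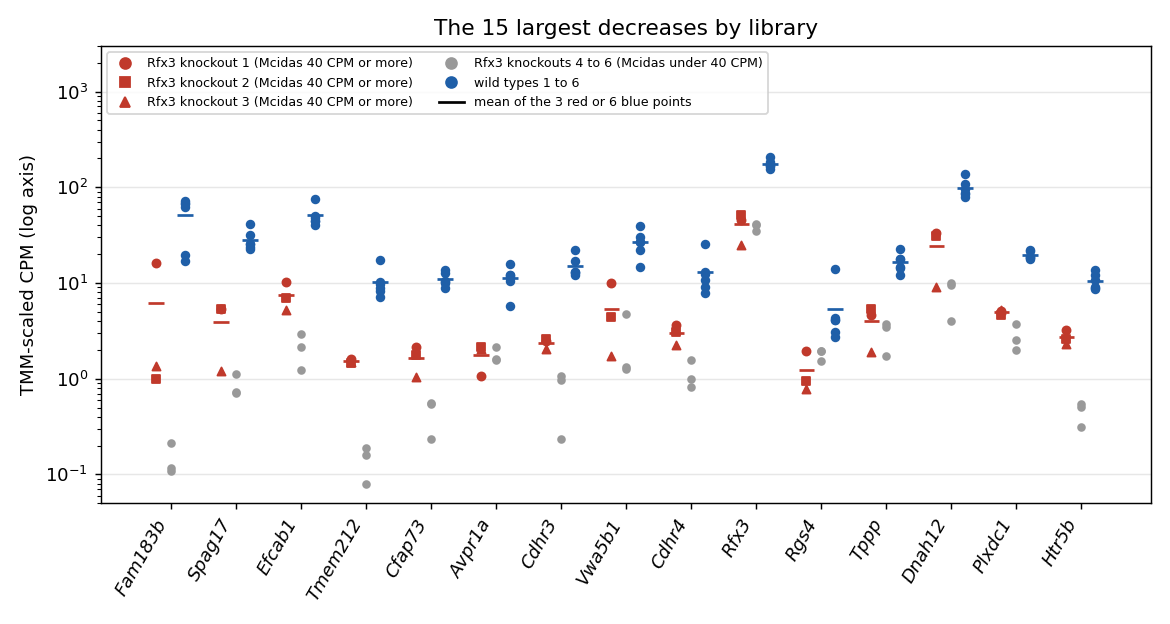
TMM-scaled CPM (log axis) of the 15 largest decreases in each Rfx3 library: red markers are knockouts 1 to 3, grey points the other 3 knockouts, blue points the 6 wild types, and short lines the means of the red and of the blue points. The 3 red markers lie below all 6 wild types for every gene; for Fam183b knockout 1 at 16.1 CPM comes close to the lowest wild type at 17.01.

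RFX proteins recognise X-boxes, so the promoters of these genes were searched for them in the RefSeq windows on GRCm38.p6 (from 250 bases before to 50 after the gene start). A paired match was GTTNCC, a spacer of 1 to 3 bases and GGNAAC, which reads the same on both strands. A single match was one arm, GTTGCC, on either strand, and a pair that contains this arm also counts as a single match. Paired matches occurred in 118 of 11242 windows of tested genes (1.05%), in 6 of 230 windows of genes at least 2-fold lower (2.61%), in 4 of 99 windows of axonemal genes, and in 9 of 64 windows of IFT, BBSome and transition zone genes (14.1%). Single matches occurred in 15.4% of all windows, in 52 of 230 windows of the genes at least 2-fold lower (22.6%), in 46 of 99 axonemal windows (46.5%), in 27 of 64 windows of the transport and transition zone genes (42.2%) and in 1 of 19 windows of the genes at least 2-fold higher. Among axonemal genes, a single match was about as common in the genes at least 2-fold lower (9 of 18) as in the others (37 of 81). The genes at least 2-fold lower held a paired match in a smaller share of windows than the transport and transition zone genes, of which 0 were 2-fold lower; this difference was not tested. A match describes the letters and is not evidence of binding.

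The windows below show these arrangements next to decreases of very different size, with the matched arms and the spacer between them in capitals. The first is from Fam183b, the largest of the 15 decreases (chr11:58801961-58802006, minus strand), and its paired match begins 16 bases before the gene start. The second is from Cdhr3 (chr12:33092876-33092911, minus strand), with a single arm read on the opposite strand in the last 6 bases before the start. The third is from Bbs7 (chr3:36613467-36613540, minus strand), a subunit of the BBSome with a log2 difference of only -0.39 (SE 0.08), and its paired match begins 121 bases before the start.
Fam183b: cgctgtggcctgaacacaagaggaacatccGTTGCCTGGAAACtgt
Cdhr3: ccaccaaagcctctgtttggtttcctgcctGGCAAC
Bbs7: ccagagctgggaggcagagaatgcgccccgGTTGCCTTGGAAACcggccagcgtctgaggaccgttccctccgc
Fam183b and Bbs7 both carry the pair, with a spacer of 1 base and of 2 bases, and their levels were 12.1% and 76.4% of the wild-type mean.

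Most axonemal genes were lower in the knockouts with retained Mcidas than in every wild type. The 8 axonemal lists, among which dynein arm assembly is counted, held 125 genes. Of these, 106 had all 3 knockouts below every wild type, against 12.7% of all genes, 1 was above, and 25 were at least 2-fold lower. The median log2 difference was -0.63, and by library it was -0.48, -0.63 and -0.81 in knockouts 1 to 3. Of the 125, 108 fell over all 6 knockouts, where 12.9% of all genes did, and 80 at equal Mcidas level, where 5.14% did. The same shares stand beside the calls of single lists below. Without knockout 3 the median was -0.55, 113 were separated downward and 17 at least 2-fold lower. Without knockout 1, 38 were at least 2-fold lower. The 72 genes of IFT, BBSome and transition zone had a median of -0.22 (-0.16, -0.20 and -0.25 by library). Of these, 35 were separated downward and 0 at least 2-fold (1 without knockout 2). Over all 6 knockouts 39 of the 72 fell, and 60 without knockout 3, where 2831 of all genes tested fell. The difference between the medians was not tested.

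**Figure D3:**
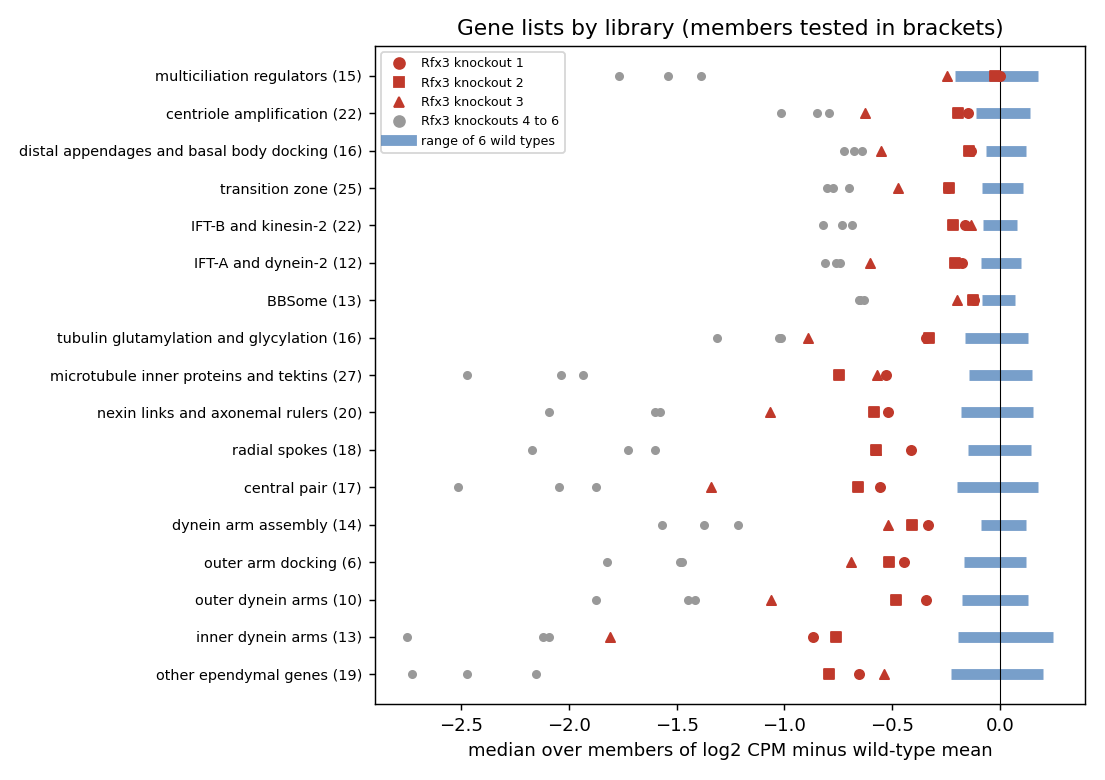
Median log2 CPM relative to the wild-type mean over the members of each list (number tested in brackets): red markers are knockouts 1 to 3, grey points the other 3 knockouts, and blue bars the range of the 6 wild types. In knockouts 1 to 3 the inner dynein arms are lowest among the axonemal lists (-0.87, -0.76 and -1.81), and IFT-B lies at -0.16, -0.22 and -0.13.

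Inner dynein arms, which shape the ciliary waveform, had the lowest median log2 difference of the 28 lists. All 13 members tested were below every wild type in all 3 knockouts, 7 of them at least 2-fold, and all 13 fell over the 6 knockouts, with 12 at equal Mcidas level. The median was -1.09, and -0.87, -0.76 and -1.81 by library. Without knockout 3 it was -0.82 with 4 members at least 2-fold lower, and -0.93 with the trend on gene length removed. Dnah10, a heavy chain of the two-headed inner arm, was at 22.8, 21.1 and 9.38 CPM against 44.9 to 93.5, median 57.8 (log2 difference -1.78, SE 0.32; adjusted p = 0.00217 over all 6 knockouts). The least reduced member was Wdr63, an intermediate chain of the inner arms, at 113, 95.7 and 84.7 CPM against 128 to 164, median 138 (log2 difference -0.55, SE 0.12). Its call over all 6 knockouts (adjusted p = 0.0439) ended without knockout 4, 5 or 6 or any 1 wild type (0.0580 to 0.0865). Dnah7a, Dnah7b and Dnah7c are near-identical copies whose reads the counting may have split, so their values are uncertain.

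Outer dynein arms, which drive beating, were less uniform. Of 10 members, 6 were separated downward, 2 of them at least 2-fold (median -0.57; -0.34, -0.48 and -1.06 by library). These 2 were heavy chains: Dnah11 at 49.5, 50.2 and 11.1 CPM against 80.5 to 148, median 97.1 (log2 difference -1.48, SE 0.41, -1.05 without knockout 3), and Dnah5 at 56.9, 53.3 and 19.3 against 86.97 to 174, median 101 (log2 difference -1.39, SE 0.34, -1.03 without knockout 3). Their models are 14458 and 15637 bases long, and knockout 3 was the lowest library in both. Both fell over all 6 knockouts (adjusted p = 0.00384 and 0.00287). Dnal4, a light chain, was at 76.04, 69.7 and 86.2 CPM against 73.1 to 82.7 (median 79.5), overlapping the wild types (log2 difference -0.03, SE 0.07).

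The proteins that dock outer arms on the doublets were lower as well. Of 6 tested, 5 were separated downward, Efcab1 and Armc4 at least 2-fold, and 6 fell over all 6 knockouts. Armc4 was at 5.76, 7.31 and 3.57 CPM against 16.5 to 27.4, median 18.4 (log2 difference -1.83, SE 0.25; adjusted p = 0.00244 at equal Mcidas level). Ccdc103, at 31.2, 30.7 and 38.6 CPM against 36.7 to 47.1 (median 41.3), overlapped the wild types through knockout 3 (log2 difference -0.31, SE 0.10). The list for dynein arm assembly, mostly cytoplasmic factors that preassemble the arms, had 10 of 14 members separated downward, 1 upward and 0 at least 2-fold lower (median -0.40). Lrrc6 was the most reduced of these, at 18.998, 16.2 and 17.8 CPM against 29.9 to 39.6, median 34.4 (log2 difference -0.96, SE 0.11), followed by Daw1 (log2 difference -0.65, SE 0.06). Tbccd1 lay inside or just above the wild-type range (log2 difference 0.05, SE 0.05).

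The central pair, the 2 single microtubules at the axis with their projections, had 16 of 17 members separated downward and 16 fallen over all 6 knockouts, 15 of them also at equal Mcidas level. The median was -0.81 (-0.56, -0.66 and -1.34 by library). At least 2-fold lower were 4 members with all 3 knockouts, and 7 without knockout 1 or without knockout 2. After Spag17 the most reduced was Spag16, at 10.7, 7.61 and 6.82 CPM against 25.99 to 34.5, median 32.6 (log2 difference -1.93, SE 0.16; adjusted p = 8.72e-05 at equal Mcidas level). The member that overlapped was Spag6, at 0.497, 0.387 and 0.582 CPM against 0.214 to 0.592 (median 0.396), a gene near the detection limit with a near-identical copy, Spag6l. Radial spokes, which pass signals between the central pair and the dyneins, had 13 of 18 members separated downward and 1, Rsph14, at least 2-fold lower (3 without knockout 1, 2 without knockout 2 or wild type 4; median -0.53). Rsph14 was at 6.15, 7.09 and 5.82 CPM against 13.9 to 18.1, median 15.3 (log2 difference -1.31, SE 0.12). Rsph4a, a spoke head protein, was at 175, 169 and 77.3 CPM against 229.9 to 342, median 263 (log2 difference -0.97, SE 0.24, -0.68 without knockout 3). The spoke head protein Rsph9 overlapped, at 82.1, 71.5 and 108 CPM against 81.4 to 95.2 (median 88.7).

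Nexin links and the rulers that set axonemal spacing had all 20 members below every wild type in all 3 knockouts, and all 20 fell over the 6 knockouts (median -0.70; -0.52, -0.58 and -1.07 by library). At least 2-fold lower were 5 members, 1 without knockout 3 and 8 without knockout 1 or 2. Cfap44, which tethers the inner arm motor, was at 171, 189 and 49.5 CPM against 266 to 406, median 311 (log2 difference -1.24, SE 0.35, -0.85 without knockout 3). The smallest decrease was that of Gas8, a core nexin link protein, at 62.5, 58.5 and 62.97 CPM against 65.1 to 77.98, median 70.7 (log2 difference -0.21, SE 0.07); its call over all 6 knockouts (adjusted p = 0.02) ended without wild type 3 (0.0509). Proteins inside the doublet microtubules, tektins included, had 23 of 27 members separated downward and 25 fallen over all 6 knockouts (median -0.59; -0.53, -0.74 and -0.57 by library). Tekt4, a tektin, was at 16.3, 14.5 and 14.7 CPM against 32.1 to 42.1, median 34.4 (log2 difference -1.23, SE 0.10). Sntn, a protein of the ciliary tip, was at 0.0785, 0 and 0.0776 CPM, at or near 0, against 0.363 to 1.26 (median 0.507).

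**Figure D4:**
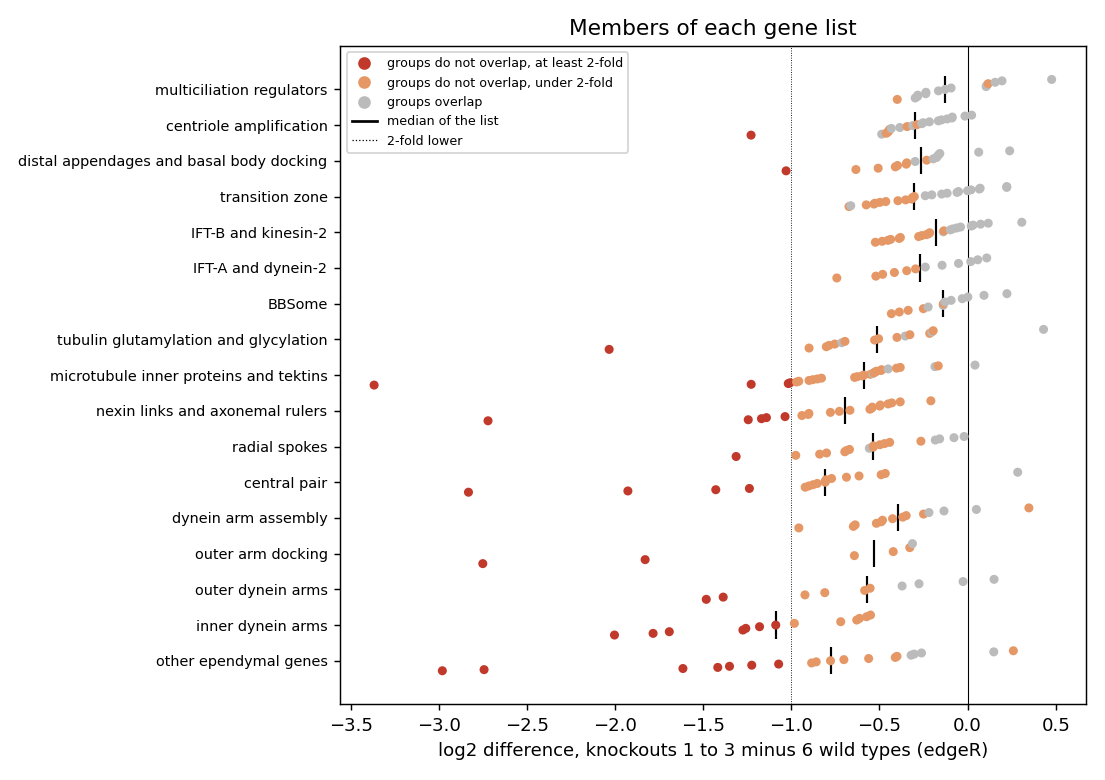
Log2 difference (knockouts 1 to 3 minus the 6 wild types) of every tested member of each list, 1 point a gene: red where the groups do not overlap and differ at least 2-fold, orange where they do not overlap, grey where they overlap, with a black line at the list median and a dotted line at 2-fold lower. Members of 1 axonemal structure range widely, as with Spag17 (-2.83) and Spag6 (0.28) of the central pair.

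About as many genes of transport into the cilium overlapped the wild types as lay below them, while 12.7% of all genes tested lay below. Of the 22 IFT-B and kinesin-2 genes, 12 were separated downward, 10 overlapped and 0 were at least 2-fold lower (median -0.18, and -0.22 without wild type 4). Ift88, a core IFT-B protein, was at 70.5, 60.7 and 55.3 CPM against 80.1 to 94.2, median 87.7 (log2 difference -0.48, SE 0.09), and it fell both over all 6 knockouts (adjusted p = 0.00581) and at equal Mcidas level (0.007). Kif17, a kinesin of this traffic, was at 7.43, 8.295 and 5.04 CPM against 8.78 to 11.6, median 9.96 (log2 difference -0.52, SE 0.16, -0.34 without knockout 3), and at equal Mcidas level it did not pass (adjusted p = 0.0989). Ttc30a1, one of several near-identical copies, overlapped the wild types (log2 difference 0.02, SE 0.09). IFT-A and dynein-2, for return traffic, had 6 of 12 members separated downward and 6 overlapping (median -0.27, and -0.13 with the trend on gene length removed). Dync2h1, the dynein-2 heavy chain, was at 129, 146 and 47.5 CPM against 165 to 193 (median 182); here knockouts 1 and 2 lay not far below the wild types, and the log2 difference of -0.74 (SE 0.28) became -0.39 without knockout 3. The fit over all 6 knockouts called 6 of these 12 lower, and 11 without knockout 3.

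The BBSome, a coat for membrane cargo of cilia, had 5 of 13 members separated downward, against 12.7% of all genes (median -0.14). Without wild type 4 the count was 8. Bbs7, whose window is printed above, was at 56.7, 55.1 and 45.4 CPM against 65.6 to 71.8 (median 68.7), and it fell over all 6 knockouts (adjusted p = 0.00529) and at equal Mcidas level (0.0163). Bbs1 was at 131, 131 and 82.3 CPM against 144 to 165, median 155 (log2 difference -0.43, SE 0.14, -0.24 without knockout 3), and Arl6, the GTPase that recruits the BBSome, at 52.96, 49.7 and 67.8 against 53.7 to 60.6, median 55.7 (log2 difference 0.0018, SE 0.10). The transition zone, the gate at the ciliary base, had 12 of 25 members separated downward, also against 12.7% of all genes. Its median was -0.30, and -0.17 with the trend on gene length removed. Rpgrip1l was its most reduced member, at 80.6, 84.8 and 45.4 CPM against 103 to 120.2, median 112 (log2 difference -0.67, SE 0.17, -0.44 without knockout 3), and Tmem216 overlapped the wild types (log2 difference 0.00017, SE 0.08). Of these 25, 13 fell over all 6 knockouts, and 21 without knockout 3.

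Genes that make basal bodies were separated downward in a larger share than all genes tested (12.7%), though many overlapped the wild types. Of 22 genes of centriole amplification, 8 were separated downward (13 without wild type 6) and 1, Ccdc78, at least 2-fold (median -0.30, and -0.19 without knockout 3; -0.15, -0.19 and -0.62 by library). Ccdc78, a deuterosome-associated protein, was at 7.22, 5.85 and 4.77 CPM against 11.3 to 16.6, median 13.8 (log2 difference -1.23, SE 0.16; adjusted p = 0.00169 at equal Mcidas level). Over all 6 knockouts 16 of the 22 fell, and 9 or 10 without knockout 4, 5 or 6 or wild type 1, 3 or 5. At equal Mcidas level 2 did, where 5.14% of all genes did. The count was 11 without knockout 3, and 1 without knockout 2, 4, 5 or 6 or wild type 1, 2, 3 or 5. Stil, needed to start a centriole, was at 69.5, 62.4 and 33.9 CPM against 59.4 to 90.99 (median 76.2), and knockout 3 alone was far below (log2 difference -0.49, SE 0.22, -0.23 without it). Distal appendages and docking had 8 of 16 members separated downward, and 10 without wild type 6 (median -0.26, and -0.13 without knockout 3). Fam92b, which works with Cby1 at the ciliary base, was at 12.3, 11.2 and 13.9 CPM against 21.9 to 28.9, median 25.05 (log2 difference -1.03, SE 0.11), and it was the 1 member at the 2-fold mark, which it missed without knockout 2, wild type 3 or wild type 5. Cep83, a distal appendage protein, was at 77.5, 71.8 and 65.6 CPM against 106 to 119.5, median 109 (log2 difference -0.63, SE 0.07; adjusted p = 0.000439 at equal Mcidas level), and Cby1 overlapped (log2 difference 0.06, SE 0.12).

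Genes for adding glutamate or glycine to tubulin, or for removing glutamate from it, had 12 of 16 members separated downward, where 12.7% of all genes were. At least 2-fold lower was 1 of these genes, Ttll10, and 2 were without knockout 1 or 2 (median -0.52, -0.31 without knockout 3). Ttll3, a glycylase, was at 128, 116 and 74.6 CPM against 158 to 248, median 192 (log2 difference -0.90, SE 0.18). Ttll10, of the same enzyme family as Ttll3, was at 0.8897, 0.602 and 0.388 CPM against 1.46 to 5.46, median 2.19 (log2 difference -2.03, SE 0.48), and wild type 6 was the highest library. Of 19 other ependymal genes, 14 were separated downward (12.7% of all genes), 7 of them at least 2-fold (2.19%), and 1 upward (9.11%). The median was -0.78 (-0.65, -0.79 and -0.54 by library), and 16 fell over all 6 knockouts, where 12.9% of all genes did. This list is not free of axonemal proteins: it holds Fam183b, 1110017D15Rik, Ak7 and Ak8, genes tied to cilia and flagella. Hdc, which makes histamine, was at 21.1, 19.99 and 20.9 CPM against 42.6 to 58.7, median 45.5 (log2 difference -1.22, SE 0.11; adjusted p = 0.00265 at equal Mcidas level). Of 15 genes of planar cell polarity, which orients ciliary beating, 5 were separated downward (12.7% of all genes) and 3 fell over all 6 knockouts (12.9% of all genes), 6 without knockout 3. Their median was -0.26, or -0.06 without knockout 3, and by library only knockout 3 was far from 0 (-0.05, -0.00085 and -0.86 by library). Vangl1, a core polarity protein, was low in all 3, at 32.7, 30.7 and 24.2 CPM against 44.7 to 52.5, median 48.6 (log2 difference -0.73, SE 0.10; adjusted p = 0.00265 at equal Mcidas level). Of 9 RFX family genes tested, 3 were separated downward (12.7% of all genes), and these include Rfx3 itself and Rfx2. Rfx2, the closest relative of Rfx3 in cilia genes, was at 99.3, 105 and 76.5 CPM against 111 to 124, median 119 (log2 difference -0.33, SE 0.10, -0.21 without knockout 3). It fell over all 6 knockouts (adjusted p = 0.00861), but its call at equal Mcidas level (0.0474) ended without any single library other than knockout 2, knockout 3 and wild type 4 (0.0634 to 0.105).

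At the 2-fold minimum fewer genes were higher (28) than lower (314), and at any fold 1307 were separated upward and 1821 downward. The 10 described here are the largest among 13 genes chosen as the decreases were. Clvs2, a lipid-binding protein of endosomes (ENSMUSG00000019785, chromosome 10, 33512286 to 33624769), was at 8.84, 8.596 and 11.8 CPM against 3.04 to 5.22 (median 3.67), 2.54-fold higher (log2 difference 1.35, SE 0.18). Apln, the peptide hormone apelin (ENSMUSG00000037010, chromosome X, 48025146 to 48034853), was at 29.3, 46.1 and 53.4 CPM against 14.01 to 21.4, median 17.7 (log2 difference 1.26, SE 0.19). Mamdc2, a secreted protein with MAM domains (ENSMUSG00000033207, chromosome 19, 23302609 to 23448442), was at 123, 98.1 and 84.03 CPM against 36.8 to 50.4, median 42.2 (log2 difference 1.25, SE 0.13). Tuba4a, an alpha tubulin isotype (ENSMUSG00000026202, chromosome 1, 75214228 to 75219865), was at 21.6, 20.7 and 29.04 CPM against 9.84 to 12.6, median 10.8. Its log2 difference of 1.102 (SE 0.12) became 0.93 without knockout 3. Tuba4a and Mamdc2, with Asphd2 (log2 difference 0.83, SE 0.08), had the 3 smallest p-values of an increase at equal Mcidas level (adjusted p = 0.000551, 0.000668 and 0.000551). In each of these 5 genes the 3 knockouts lay clear above all 6 wild types, and the other 3 knockouts did too.

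Gng3, a G-protein gamma subunit, was at 5.89, 3.48 and 7.17 CPM against 1.96 to 2.61 (median 2.14). Gng11, another gamma subunit, was at 5.05, 3.95 and 10.4 CPM against 2.702 to 3.42 (median 2.86), and knockouts 1 and 2 were not far above the wild types. Fxyd6, which modulates the sodium pump, was at 163, 184 and 310.3 CPM against 59.4 to 111, median 90.2 (log2 difference 1.29, SE 0.23). Ntsr2, a neurotensin receptor found on astrocytes, was at 14.9, 14.6 and 25.2 CPM against 6.31 to 13.6, median 7.94 (log2 difference 1.096, SE 0.26), where wild type 4 came close to the knockouts. Slco1c1, a thyroid hormone transporter, and Qpct, glutaminyl cyclase, had log2 differences of 1.07 (SE 0.16) and 1.03 (SE 0.13). Knockout 3 was the highest of the 9 libraries for Gng11, Fxyd6 and Ntsr2, and without it their differences were 0.62, 0.95 and 0.79, under 2-fold. Tuba4a and Qpct were also under 2-fold without knockout 3 (0.93 and 0.88), so that 5 of the 10 still met the 2-fold rule. At equal Mcidas level the call of Gng11 ended without wild type 1, 2 or 6 (0.0538 to 0.0558) and that of Ntsr2 without wild type 1, 2, 3, 5 or 6 (0.0530 to 0.0601).

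**Figure D5:**
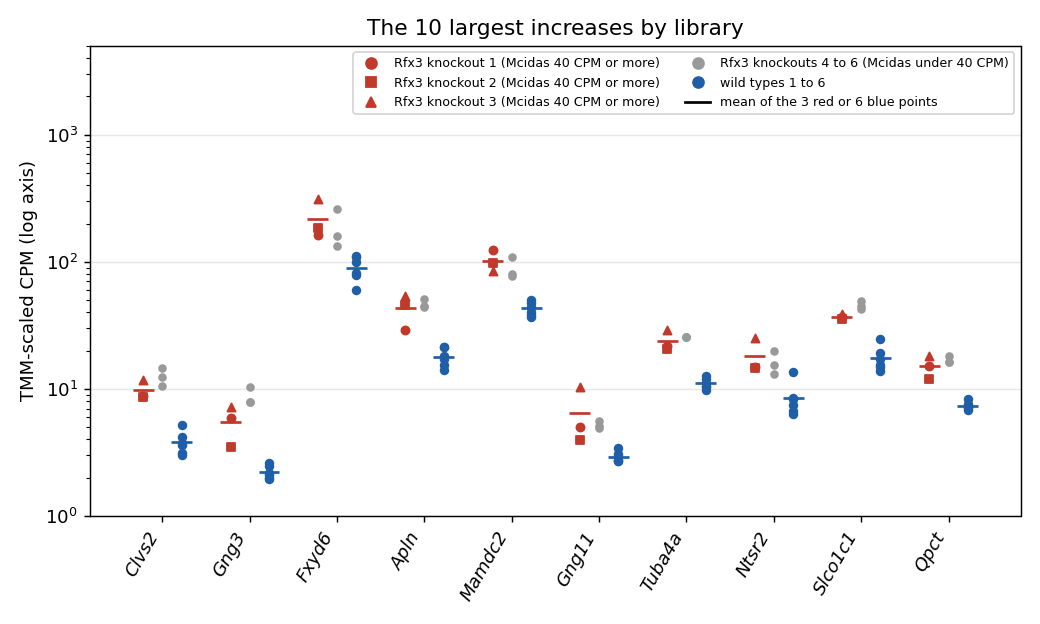
TMM-scaled CPM (log axis) of the 10 largest increases in each Rfx3 library: red markers are knockouts 1 to 3, grey points the other 3 knockouts, blue points the 6 wild types, and short lines the means of the red and of the blue points. The 3 red markers lie above the 6 wild types for each gene, and for Ntsr2 the lowest knockout (14.6 CPM) is close to the highest wild type (13.6 CPM).

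Markers of other cell types were measured in the same libraries, and their part in the results was not tested. Summed over 15 astrocyte markers, knockouts 1 to 3 held 6946 to 7508 CPM and the wild types 5514 to 9110. Wild type 6 alone set the upper end, and the other wild types held at most 6643, below all 3 knockouts. Of 14 members tested, 2 were separated upward, where 9.11% of all genes were (4 without knockout 2, 5 without wild type 6). Of these astrocyte genes, Fgfr3 was at 177, 184 and 174 CPM against 148 to 169 (median 155) and rose over all 6 knockouts (adjusted p = 0.00576), as 6 of the 14 did, where 10.6% of all genes did. Oligodendrocyte lineage markers summed to 685, 626.3 and 829 CPM against 566 to 801, where wild type 6 held 801 and the other wild types at most 625.7. Microglia markers summed to 67.2 to 158 against 61.0 to 499. All 8 members tested of each of these 2 lists overlapped the wild types. Olig1 was at 147, 145 and 306 CPM against 79.6 to 164 (median 110.3), with knockout 3 alone above the wild types. Neuroblast and neuron markers summed to 61.1 to 113 CPM against 61.9 to 78.3, markers of cell division to 761 to 805 against 736 to 996, and radial glia markers to 1456 to 1589 against 1526 to 1744. Choroid plexus markers summed to 55.6 to 82.6 CPM against 74.9 to 99.4, and of its 5 genes tested Kcne2, at 0.471, 0.4298 and 0.465 CPM against 0.524 to 0.866 (median 0.695), was separated downward (2 genes without knockout 1 or 3 or wild type 2 or 6). Vessel and mesenchyme markers summed to 201 to 242 CPM against 157 to 236, with Cldn5 listed at 0 in knockouts 1 to 3. Of 18 genes of cholesterol synthesis, 7 were separated upward (median 0.15, and 0.06 without knockout 3; 0.10, 0.04 and 0.21 by library), against 9.11% of all genes. Fdps, an enzyme of that pathway, was at 35.7, 33.95 and 60.6 CPM against 30.03 to 33.3, median 31.02 (log2 difference 0.48, SE 0.16, 0.16 without knockout 3). Over all 6 knockouts 12 of the 18 rose (7 without knockout 4, 5 or 6 or wild type 3).

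At equal Mcidas level, 737 genes fell (5.14%) and 302 rose (2.11%), while 1970 and 2039 had an unadjusted p under 0.05 in those directions. Without knockout 3 the counts were 1265 and 725, and without wild type 3 only 149 rose. With the Foxj1 level as covariate in place of Mcidas, 521 fell and 224 rose, and the calls of Fam183b (adjusted p = 0.0897), Vwa5b1 (0.0557), Rgs4 (0.0717) and Rfx2 (0.0933) ended. No library lies between 22.5 and 65.9 CPM of Mcidas, so the covariate mostly separates the 3 low knockouts from the other 9 libraries. The p-values are conditional on that measured level. The genotype difference in this fit then rests mostly on knockouts 1 to 3 against the wild types. Its calls are therefore not independent of that comparison. Of the 1857 genes that fell over all 6 knockouts, 707 also fell at equal Mcidas level, and of the 1517 that rose 265 did. Beside Plxdc1, the smallest p-values of a decrease belonged to Plppr4, a brain phospholipid phosphatase-related protein, and to 4430402I18Rik. Plppr4 was at 20.3, 20.2 and 13.7 CPM against 42.7 to 58.3, median 47.997 (log2 difference -1.43, SE 0.15; adjusted p = 8.72e-05), and 4430402I18Rik at 7.95, 7.52 and 8.57 against 18.8 to 24.2, median 22.01 (log2 difference -1.43, SE 0.10; adjusted p = 8.72e-05). In all 3 of these genes the knockouts with retained Mcidas lay below every wild type, and for Plppr4 knockout 3 was lower than the other two.

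The Rfx2 line, with 6 Rfx2-/- and 8 wild-type libraries of the same age, background and culture, gave libraries and controls of its own. Of 14305 genes tested there, 2638 fell (18.4%) and 1988 rose (13.9%). Of the 314 genes at least 2-fold lower in the Rfx3 knockouts with retained Mcidas, 293 were tested in the Rfx2 line and 188 of them fell. Of the 125 axonemal genes, 124 were tested there and 115 fell (median -0.87), and of the 72 transport and transition zone genes 71 were tested and 58 fell (median -0.45). The regulators were not kept in that line: Mcidas differed by -1.49, Ccno by -1.18 and Foxj1 by -0.62 on the log2 scale (adjusted p = 0.00048, 0.00109 and 0.000978). Rfx3 itself did not pass (-0.06, adjusted p = 0.652).

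Several of the largest decreases were not called in the Rfx2 line. Fam183b differed there by -0.02 (adjusted p = 0.963), Efcab1 by -0.31 (0.302), Cfap73 by -0.48 (0.102), Plxdc1 by -0.28 (0.323), Vwa5b1 by 0.12 (0.784) and Tppp by -0.17 (0.587). Avpr1a was higher in the Rfx2 knockouts (0.99, adjusted p = 0.0163). Others fell in both lines, with log2 differences in the Rfx2 line of -1.22 for Spag17, -1.15 for Dnah12 and -1.27 for Cdhr3. Tmem212, Cdhr4 and Htr5b had the largest of these differences there, -5.10, -3.77 and -5.22 (adjusted p = 8.05e-05, 1.5e-05 and 0.000903). For the 5 genes with the largest decreases, the effect of all 6 Rfx3 knockouts was compared with the Rfx2 effect in a fit of both lines. The Rfx3 effect was the larger decrease for Fam183b (difference -3.92, adjusted p = 0.0192), Spag17 (-2.34, 0.019), Efcab1 (-3.08, 0.000178) and Cfap73 (-2.89, 0.000226). For Tmem212 the difference did not pass (1.48, SE 0.88, adjusted p = 0.382). These 5 genes were picked as the largest decreases in Rfx3 libraries that also enter this fit, which favours a larger Rfx3 effect, so the differences are no independent evidence. The Rfx3 effect there includes the 3 knockouts with low Mcidas.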

How the data were processed

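The authors deposited raw counts per Ensembl gene, not normalized. Per the submitters' processing notes, CASAVA 1.8.2, STAR 2.4 and featureCounts 1.4.6 were used with GRCm38. Which annotation and strand setting were used is not given in the sources used here, so overlapping and antisense genes cannot be told apart. Values of genes with near-identical copies are uncertain too. Libraries were made from total RNA with TruSeq kits, per the labels' protocols. The table held 21647 genes, of which 21583 matched GENCODE M21, the source of symbols, lengths and positions.

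The members and gene lists (28 lists, 415 symbols, 411 in the table) were chosen with earlier results of these data known. The 12 Rfx3 libraries were filtered with filterByExpr (minimum count 10, minimum total 15), which kept 14340 genes, and scaled by TMM in edgeR 4.0.16 (R 4.3.3). Log2 differences of the 3 retained knockouts are edgeR quasi-likelihood estimates with SE. All 6 knockouts and the 6 wild types were compared by edgeR's quasi-likelihood test (two-sided), and again with log2 Mcidas CPM (prior count 2) as covariate. Calls had a Benjamini-Hochberg adjusted p below 0.05 over all genes tested. Levels are CPM. Named genes are Rfx3, the regulators, the 15 largest decreases and 10 largest increases with a mean of at least 5 CPM in the higher group, the 2 most reduced members and the least changed member of each cilium list, and the members of other lists and the genes of the covariate fit with the smallest p. Only some of the last are described, and 1 gene that the rule names is not reported here. Predicted and Y-linked genes were left out of the largest changes. Dnah7a to Dnah7c, Cldn5 and Spag6l were named outside this rule.

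DESeq2 1.42.0 and limma 3.58.1 were alternatives. The script was tested on simulated data, 14340 genes with 200 changed by 1.5 on the log2 scale: over 6 against 6 libraries 100% were recovered, at equal Mcidas level 100%, and by separation with 2-fold 99.5%. Counts carry sampling error that is small at these depths except for genes near 0. Promoter windows are from RefSeq.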

Additional observations from a re-analysis of the deposited data

Results flagged for a closer look

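Among 105 genes checked over the 6 wild types, 11 had 1 library far from the others, and chance gives about 1 in 20 groups. In 9 of them that library was wild type 6, which was the highest: Efcab1 at 76.1 CPM (others 40.5 to 50.2), Tmem212 at 17.5 (7.09 to 10.1), Cdhr4 at 25.5 (7.80 to 13.1), Rgs4 at 13.9 (2.71 to 4.33), Dnah5 at 174 (87.0 to 118), Ttll10 at 5.46 (1.46 to 2.71), Sntn at 1.26 (0.363 to 0.594), and the microglia genes Tyrobp at 31.6 (4.62 to 12.4) and C1qc at 73.8 (8.47 to 22.1). Wild type 4 was far from the others for Ntsr2, at 13.6 CPM (6.31 to 8.41), and for Spag16, at 25.99 CPM (32.3 to 34.5). Without wild type 6 the log2 differences of the retained knockouts were -2.60 for Efcab1, -2.52 for Tmem212, -1.81 for Cdhr4, -1.52 for Rgs4 and -1.22 for Dnah5.

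The effect of the Rfx3 knockouts differed from that of the Rfx2 knockouts in 4 of the 5 genes tested, by -3.92 for Fam183b, -2.34 for Spag17, -3.08 for Efcab1 and -2.89 for Cfap73 on the log2 scale (edgeR, adjusted p = 0.0192, 0.0190, 0.000178 and 0.000226). The 5 were picked as the largest Rfx3 decreases from libraries in the same fit, which favours such a difference.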

How the results depend on the processing

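The number of genes at least 2-fold lower with full separation was 314, from 264 to 475 when 1 library was left out, and 728 at a 1.5-fold minimum. The number higher was 28, from 26 to 67 when 1 library was left out, 55 with no low-count filter, 198 at 1.5-fold, 128 with wild types 1 to 3 and the replicate block, and 80 without both knockout 3 and wild type 6, which was chosen after seeing the data. The IFT-B median of -0.18 ranged from -0.22 to -0.16 with 1 library left out. The vessel and mesenchyme median turned to 0.093 with wild types 1 to 3 and the replicate block. Over all 6 knockouts, leaving out 1 library gave 1289 to 2831 genes lower and 849 to 2699 higher, and leaving out both knockout 3 and wild type 6 gave 2811 and 2816. At equal Mcidas level it gave 494 to 1265 lower and 149 to 725 higher, and 1275 and 836 without both. DESeq2 gave 1216 and 806 there, the Ccno level as covariate 1537 and 1225, and the Foxj1 level as covariate 521 and 224. With 1 library left out, the highest counts of both fits were those without knockout 3. The cause of these moves was not tested.

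Replicate numbers did not pair the samples: correlations of same-numbered deviations were -0.17, 0.0018, 0.20, -0.14, -0.36 and 0.00062. With the replicate block 795 genes were higher over all 6 knockouts, and 0 were lower and 0 higher at equal Mcidas level by edgeR (869 and 454 at an unadjusted p under 0.05; other tools were not run with the block). Libraries of the Rfx2 line were not left out in turn. Depth limits genes under about 1 CPM, such as Sntn and Spag6.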
